A study of Bos taurus with 4 samples.

Results

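The genes that encode the respiratory chain and the ATP synthase of mitochondria were followed in the semitendinosus muscle of bulls of a beef and a dairy breed. A gene belonged to this set if its symbol began with NDUFA, NDUFB, NDUFC, NDUFS, NDUFV, SDHA to SDHD, UQCR, COX4 to COX8 or ATP5. The symbol alone decided membership, but the set itself was chosen with earlier results of these data known. The rule took 71 of the 7788 genes named on the array, and all 71 were among the 6376 genes measured. They comprised 64 subunits, of which 34 belong to complex I, 4 to complex II, 5 to complex III, 9 to complex IV and 12 to complex V, the ATP synthase. The other 7 were the assembly factors NDUFAF4, NDUFAF7, SDHAF1, SDHAF3 and COX7A2L, the paralogue NDUFA4L2 and the ATP synthase inhibitor ATP5IF1. NDUFA4 and NDUFA4L2 were placed with complex IV, where the NDUFA4 protein is now assigned. A further 28 genes with such symbols, among them COX5A, COX5B, COX6A1, COX6B1, COX6C, COX7C, COX8B, UQCRB, UQCRC2, NDUFS8 and ATP5F1C, had no probe matched to them and were not analysed here.

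The samples were 4 Limousin (LIM, beef) bulls and 4 Holstein-Friesian (HF, dairy) bulls, all 15 months old, for which the labels name neither a treatment nor a genotype. Each of 4 two-colour arrays held the labelled RNA of 1 LIM bull in the red dye Cy5 and of 1 HF bull in the green dye Cy3. No array had the dyes swapped, and for a single probe the effects of breed and of dye cannot be told apart. The study took pieces from the central part of the muscle and freed them of connective and adipose tissue. Such a piece can still hold several fibre types and other cells. In it, fewer cells of a type and less RNA per cell cannot be told apart. Of 42990 spots per array, 32513 to 33527 in the LIM channel and 27102 to 28769 in the HF channel stood well above background, and the number of arrays limits the precision. All 5 measured skeletal muscle markers were well above background in both channels on every array.

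Complexes I to IV pass electrons from NADH and succinate to oxygen and pump protons across the inner mitochondrial membrane, apart from complex II, which pumps none. ATP synthase lets the protons flow back and makes ATP. Complex I has a matrix arm, where core subunits carry the flavin and the iron-sulfur clusters, and a membrane arm built largely of core subunits from mitochondrial DNA and of accessory NDUFA, NDUFB and NDUFC subunits from nuclear genes. Slow oxidative muscle fibres hold more of these complexes than fast glycolytic fibres, and several subunits of complex IV have separate muscle and general isoforms.

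Values are given as log2 ratios of the LIM over the HF channel, as labelled, after loess normalization within each array, and the mean over the 4 arrays is given with its moderated standard error. For MSTN, FST, SMAD2, GSK3B, TGFB2, HSPA8 and SIRT1, whose direction the study gives from microarray and qPCR, the ratios here had the opposite sign. The study's microarray comparison of LIM with HF bulls is the one whose deposited arrays were used here, so this is not a disagreement between separate array experiments. MSTN, the myostatin gene, for example, had a ratio of 0.68 ± 0.13 and SIRT1, a deacetylase gene, -0.30 ± 0.081. For MSTN the study also reports less protein in the beef bulls by Western blot. SMAD2, GSK3B and TGFB2 had an adjusted p under 0.05 here, as higher in the LIM channel (0.0312, 0.0442 and 0.0401). If the names of both channels were exchanged, every sign would turn, so each statement refers to the channels as they are labelled.

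Parts of complex I and of the ATP synthase had less RNA in the LIM channel after loess, namely NDUFA5, NDUFA12 and NDUFB10 of complex I and ATP5PO of the ATP synthase. These 4 of 71 genes passed an adjusted p of 0.05 as lower, which is 5.63% of the set, where 3.15% of all genes measured were lower by the same rule. As higher, 0 of the 71 passed, where 2.78% of all genes did, and 67 passed in neither direction. At an unadjusted p under 0.05 there were 23 genes, 9 higher and 14 lower, which is 32.4% of the set and 28.9% of all genes measured. All 4 calls were lost with 3 arrays, whichever array was left out, when 0 of the 71 genes passed (17 to 21 at an unadjusted p under 0.05), and over all kept probes 0 passed without array 1, 2 or 4 and 51 without array 3. With each array centred on its median in place of loess, none of the 4 was lower (their ratios were 0.10, 0.14, 0.16 and 0.28).

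**Figure D1:**
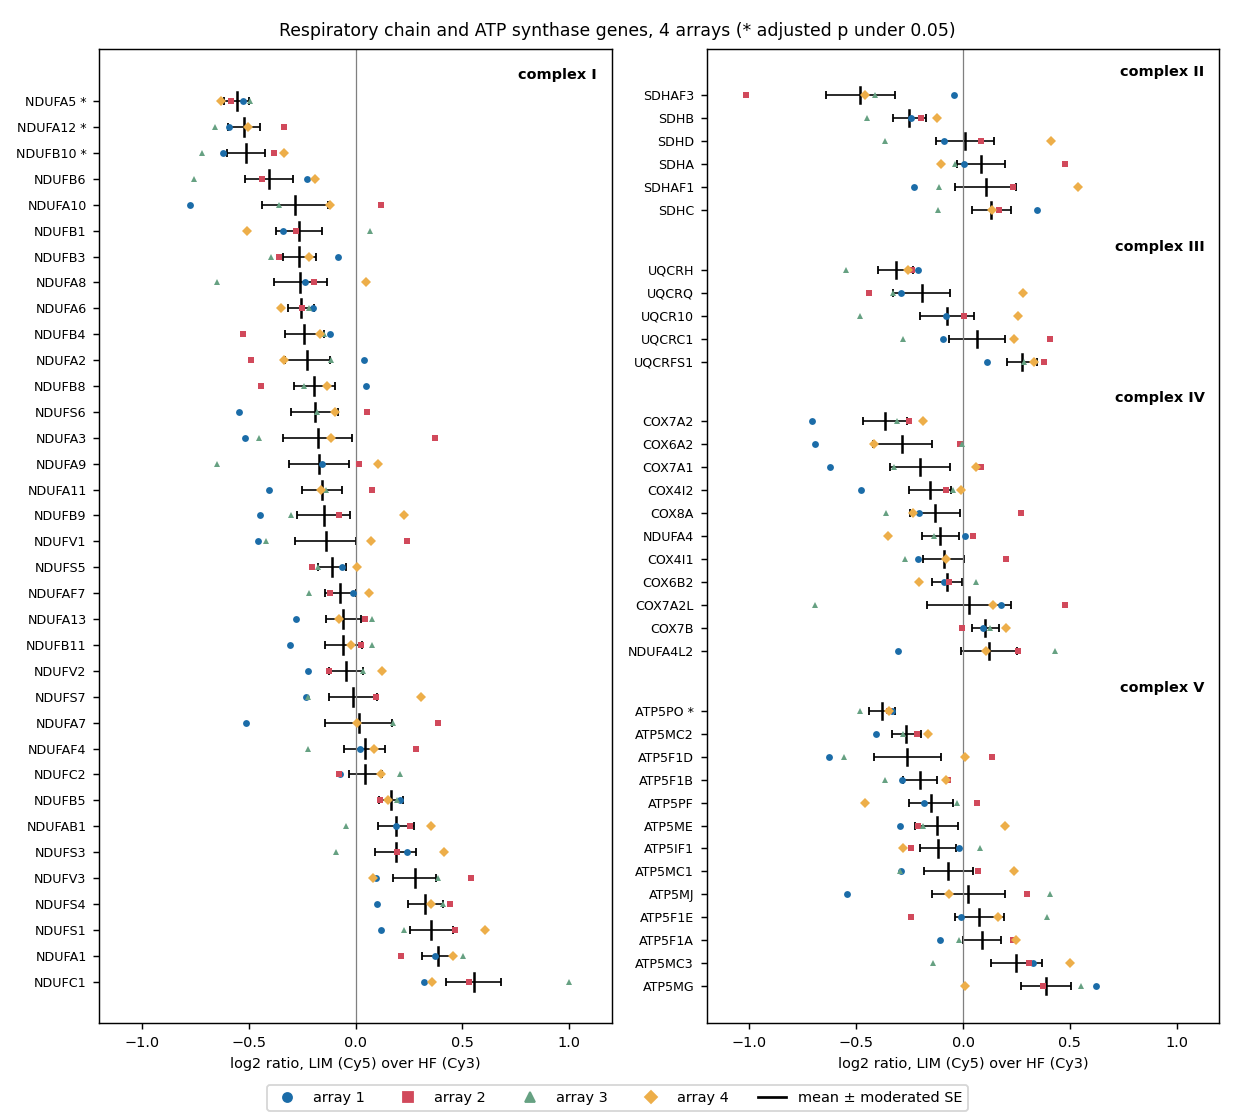
Log2 ratio of the LIM (Cy5) over the HF (Cy3) channel (horizontal axis) of the genes of the set (rows), sorted within complexes I to V, with 1 coloured symbol per array and a black bar for the mean ± moderated SE. Asterisks mark the 4 genes with an adjusted p under 0.05, all left of 0 after loess, and right of 0 with median centring, and 46 genes had arrays on both sides of 0. Genes with 1 sign on all arrays made up 35.2% of the set and 36.2% of all genes measured.

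NDUFA5, an accessory subunit of the matrix arm, was the lowest gene of the set after loess and the fourth lowest with median centring. Its log2 signals were 12.69, 12.81, 12.54 and 13.06 in LIM bulls 1 to 4, against 13.21, 13.39, 13.03 and 13.69 in HF bulls 1 to 4. The ranges of the breeds overlapped, since the LIM bull of array 4 lay just above the lowest HF bull, but within each array the LIM bull was lower by a like amount. The ratios were -0.53, -0.58, -0.49 and -0.63 on arrays 1 to 4, with a mean of -0.56 ± 0.059, or 0.680 of the HF level (adjusted p = 0.0227). NDUFA12, another accessory subunit of the matrix arm, had log2 signals of 12.90, 13.09, 12.65 and 12.93 in LIM bulls, against 13.50, 13.43, 13.31 and 13.43 in HF bulls. Every LIM bull lay below every HF bull for this gene. The ratio averaged -0.52 ± 0.076, or 0.696 of the HF level (adjusted p = 0.0337).

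NDUFB10 lies in the outer part of the membrane arm. Its log2 signals were 13.64, 13.75, 13.47 and 13.69 in LIM bulls, against 14.26, 14.13, 14.19 and 14.02 in HF bulls, again with no overlap. The ratio averaged -0.51 ± 0.089 (adjusted p = 0.0441), and was lowest on arrays 1 and 3. ATP5PO encodes the oligomycin sensitivity conferring protein, which joins the peripheral stalk to the catalytic head of the ATP synthase. It had log2 signals of 12.59, 12.62, 12.40 and 12.62 in LIM bulls, against 12.92, 12.96, 12.88 and 12.97 in HF bulls. The HF bulls lay close together and the LIM bull of array 3 was the lowest of all. The ratio averaged -0.38 ± 0.061, or 0.769 of the HF level (adjusted p = 0.0402).

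The highest ratios of the set belonged to other parts of the same complexes, and none of them passed the test after loess. NDUFC1, a small accessory subunit of the membrane arm, had log2 signals of 12.67, 12.87, 12.93 and 12.88 in LIM bulls, against 12.35, 12.33, 11.93 and 12.52 in HF bulls, with no overlap. Its ratios were 0.32, 0.53, 1.00 and 0.36, with a mean of 0.55 ± 0.13 (adjusted p = 0.0733), and array 3 stood highest. NDUFA1, an accessory subunit of the membrane arm, had log2 signals of 14.07, 13.73, 13.87 and 14.07 in LIM bulls, against 13.69, 13.52, 13.37 and 13.62 in HF bulls. The groups did not overlap, and the mean ratio of 0.39 ± 0.073 missed the threshold narrowly (adjusted p = 0.0504). Over the whole set, the channel values of 9 genes lay wholly lower in LIM bulls and those of 5 wholly higher, that is 12.7% and 7.04%, where among all genes measured 8.5% were wholly lower and 8.56% wholly higher.

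**Figure D2:**
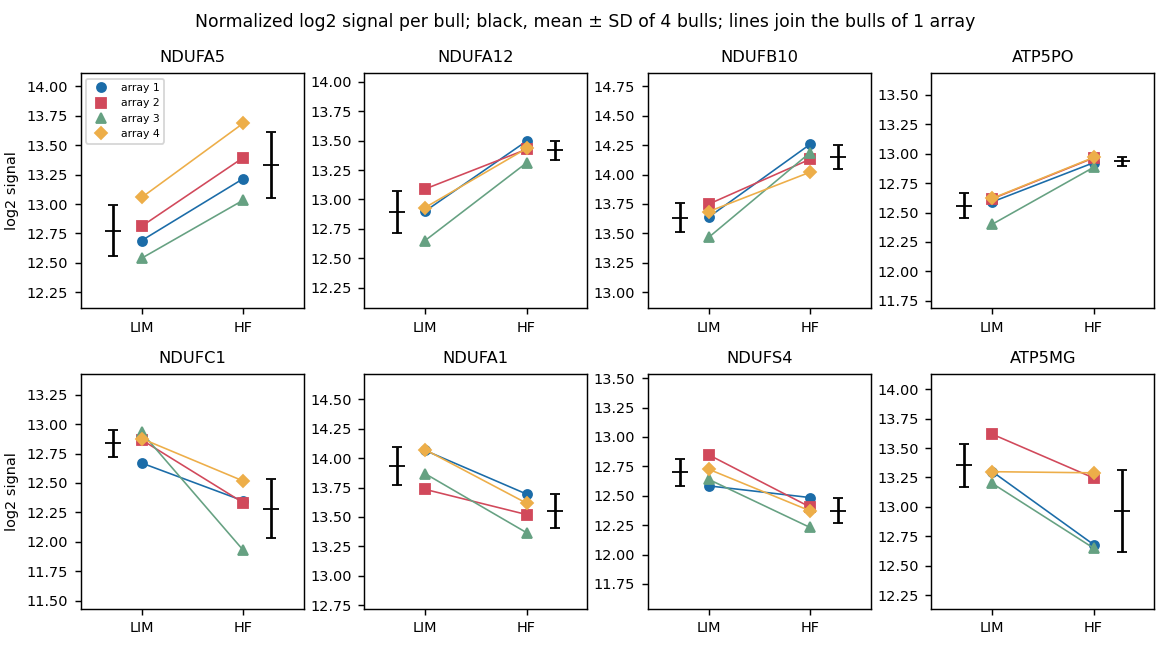
Normalized log2 signal (vertical axes, each spanning 2 log2 units) of 8 genes in the 4 LIM bulls (left) and the 4 HF bulls (right), with lines joining the bulls hybridized to 1 array and black bars for the mean ± SD. The upper row holds the 4 genes called lower in LIM, of which NDUFA5 alone has overlapping breeds, and the lower row 4 genes with high ratios that did not pass, of which ATP5MG has overlapping breeds.

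Within complex I the core subunits had a higher median than the accessory subunits, and the ratios of both overlapped. The 6 measured core subunits had a median ratio of 0.088 and the 28 accessory subunits -0.17, and with median centring these were 0.77 and 0.48. The core median exceeded the accessory median by 0.16, 0.25, 0.13 and 0.45 on arrays 1 to 4, a description of chosen groups of genes for which no test was made. Of the core subunits, NDUFS1, the large subunit with several iron-sulfur clusters, had ratios of 0.12, 0.47, 0.22 and 0.61 and a mean of 0.35 ± 0.10 (adjusted p = 0.102). Further core subunits changed sign between arrays, with means of 0.19 ± 0.10 for NDUFS3, -0.012 ± 0.11 for NDUFS7, -0.046 ± 0.080 for NDUFV2 and -0.14 ± 0.14 for NDUFV1, which binds NADH and the flavin.

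Among the accessory subunits, the 9 NDUFB genes of the membrane arm had a lower median than the 13 NDUFA genes. It was -0.24 after loess and 0.42 with median centring, and 8 of the 9 means were below 0 after loess. The NDUFB medians of -0.23, -0.36, -0.24 and -0.17 on arrays 1 to 4 were each below the median of all 71 genes on that array. NDUFB6 averaged -0.40 ± 0.11 (adjusted p = 0.0991) and NDUFB4 -0.24 ± 0.091 (adjusted p = 0.169), both without overlap of the breeds and without passing the test. NDUFB5 was the exception, with ratios of 0.21, 0.11, 0.19 and 0.15. The 13 accessory NDUFA genes had a median of -0.18 after loess and 0.46 with median centring, and spanned NDUFA5 at the lower end and NDUFA1 at the upper. NDUFA6, also of the matrix arm, had ratios of -0.20, -0.25, -0.22 and -0.35, a mean of -0.25 ± 0.060 and an adjusted p = 0.0737. In contrast, NDUFS4, an accessory subunit beside the NADH-oxidizing module, averaged 0.33 ± 0.081 (adjusted p = 0.0791) and NDUFV3, of the same module, 0.28 ± 0.10 (adjusted p = 0.162), and for both genes all LIM bulls lay above all HF bulls. The accessory subunits not named so far lay between -0.28 ± 0.15 for NDUFA10 of the membrane arm and 0.19 ± 0.084 for NDUFAB1, the mitochondrial acyl carrier protein. The distance between both ends of complex I held on every array. NDUFC1 minus NDUFA5 gave 0.85, 1.11, 1.49 and 0.99 on arrays 1 to 4, and NDUFA1 minus NDUFA5 gave 0.90, 0.80, 0.99 and 1.08. These pairs were chosen for their distance, so the differences are given as a description. The assembly factors of complex I were close to 0 after loess, with 0.042 ± 0.10 for NDUFAF4 and -0.073 ± 0.072 for NDUFAF7. NDUFAF7 was the dimmest gene of the set (log2 intensity 6.52) and well above background in the HF channel on 3 of 4 arrays. Its ratio was -0.14 without background correction, -0.35 with the scanner software's processed signals and -0.26 with median centring. With median centring NDUFAF4 was at 0.27.

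Complex II, succinate dehydrogenase, oxidizes succinate in the citric acid cycle and is encoded wholly by nuclear genes. None of its 4 subunits or 2 assembly factors passed the test. SDHB, the iron-sulfur subunit, was the lowest subunit, with log2 signals of 15.08, 15.16, 15.11 and 15.24 in LIM bulls, against 15.32, 15.35, 15.56 and 15.36 in HF bulls. The breeds did not overlap for SDHB, and its ratio averaged -0.25 ± 0.077 (adjusted p = 0.116). SDHA, the flavin subunit, averaged 0.084 ± 0.11, and the membrane anchors SDHC and SDHD averaged 0.13 ± 0.091 and 0.0097 ± 0.13. Each of these 3 subunits had arrays on both sides of 0. SDHAF3, an assembly factor that acts on the SDHB subunit, had log2 signals of 8.26, 7.65, 7.95 and 8.27 in LIM bulls, against 8.30, 8.67, 8.36 and 8.73 in HF bulls. The breeds did not overlap here either, but the ratios of -0.040, -1.02, -0.41 and -0.46 were widely spread (mean -0.48 ± 0.16, adjusted p = 0.138). SDHAF1, the other such factor, averaged 0.11 ± 0.14.

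Complex III, the cytochrome bc1 complex, moves electrons from ubiquinol to cytochrome c. Its 5 measured subunits did not pass the test and lay on both sides of 0. UQCRH, the hinge protein beside cytochrome c1, had ratios of -0.21, -0.24, -0.55 and -0.26 and a mean of -0.31 ± 0.081 (adjusted p = 0.0859), with array 3 well below the others. UQCRFS1, the Rieske iron-sulfur protein, had ratios of 0.11, 0.38, 0.29 and 0.33 and a mean of 0.28 ± 0.070 (adjusted p = 0.0836). UQCRFS1 was above UQCRH on all 4 arrays, by 0.32, 0.62, 0.83 and 0.59. They were the highest and the lowest gene of the complex, so these differences are a description. UQCRQ averaged -0.19 ± 0.13, UQCR10 -0.075 ± 0.13 and the core protein UQCRC1 0.067 ± 0.13, and each of these 3 changed sign between arrays. CYC1, cytochrome c1 itself, lay outside the symbol rule and averaged -0.16 ± 0.12 without passing.

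Complex IV, cytochrome c oxidase, reduces oxygen. None of its 11 genes passed the test, and 8 of the 9 subunits had a mean below 0 after loess, whereas 8 of 9 were above 0 with median centring. The subunits with separate muscle and general isoforms could be compared in part. COX7A1, the heart and muscle isoform of subunit VIIa, had ratios of -0.62, 0.082, -0.32 and 0.059 and a mean of -0.20 ± 0.14. COX7A2, the general isoform, had ratios of -0.71, -0.25, -0.31 and -0.19 and a mean of -0.36 ± 0.10 (adjusted p = 0.103). Array 1 was the lowest for both isoforms, and the muscle minus the general isoform gave 0.085, 0.34, -0.015 and 0.25, so the sign of their difference was not the same on every array. COX6A2, the heart and muscle isoform of subunit VIa, averaged -0.28 ± 0.14, with ratios of -0.69, -0.016, -0.0066 and -0.42 that were low on arrays 1 and 4. The pair for subunit IV averaged -0.090 ± 0.10 for the general COX4I1 and -0.15 ± 0.10 for COX4I2, and their difference changed sign between arrays. COX8A averaged -0.13 ± 0.12 and COX6B2 -0.076 ± 0.069. COX7B was the only subunit of complex IV with a mean above 0 after loess, at 0.10 ± 0.064. NDUFA4 averaged -0.11 ± 0.088 and its paralogue NDUFA4L2, known from human and mouse cells as a gene induced by low oxygen, 0.12 ± 0.13. COX7A2L, a factor for supercomplexes of the chain, had the widest spread of all 71 genes, with ratios of 0.18, 0.48, -0.69 and 0.14. Members of such isoform pairs are alike in sequence, and hybridization of a transcript to its paralogue's probe was not tested.

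In the ATP synthase, ATP5PO was the only called gene of 13. The 3 genes for subunit c, which forms the rotating ring, encode the same mature protein with different import sequences, and their ratios were not alike. ATP5MC2 had ratios of -0.41, -0.21, -0.28 and -0.17, with a mean of -0.27 ± 0.067 (adjusted p = 0.0836) and no overlap of the breeds. ATP5MC1 averaged -0.069 ± 0.11 and ATP5MC3 0.25 ± 0.12, with ratios of 0.33, 0.31, -0.14 and 0.50 for ATP5MC3. ATP5MC3 exceeded ATP5MC2 on every array, by 0.73, 0.52, 0.14 and 0.67. They were the highest and the lowest of the 3 genes, so these differences are a description. ATP5MG, subunit g of the membrane part, had the highest ratio of the complex at 0.39 ± 0.12 (adjusted p = 0.115), but its ratios of 0.62, 0.37, 0.55 and 0.0096 were close to 0 on array 4 and the breeds overlapped. Of the catalytic head, the beta subunit ATP5F1B averaged -0.20 ± 0.078 with all LIM bulls below all HF bulls, and the alpha subunit ATP5F1A 0.089 ± 0.088 with overlap. ATP5F1D, the delta subunit of the central stalk, averaged -0.26 ± 0.16 and was below 0 only on arrays 1 and 3. The subunits not named so far lay between -0.15 ± 0.10 for ATP5PF, subunit F6 of the peripheral stalk, and 0.076 ± 0.12 for ATP5F1E, the epsilon subunit of the central stalk. The inhibitor ATP5IF1, which stops the enzyme from running backwards, averaged -0.12 ± 0.086.

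As a whole the set lay slightly lower in the LIM channel after loess and clearly above 0 with median centring. The median of the 71 mean ratios was -0.11 after loess, where the median over all genes measured was 0.0029, and 0.56 with median centring, where the median over all genes was 0.35. After loess 45 of the 71 means were below 0, which is 63.4%, against 49.5% of all genes, and 68 of 71 were above 0 with median centring. By complex the medians after loess were -0.13 for I, 0.047 for II, -0.075 for III, -0.11 for IV and -0.12 for V, and with median centring all 5 were above 0. Leaving out an array moved the median of complex II between -0.081 and 0.13 and that of complex III between -0.18 and 0.061, so that neither kept its sign. The 71 means had an SD of 0.24, where the means of all genes measured had an SD of 0.36. The values of a gene on single arrays had a median SD of 0.22, which is not the spread of a mean over 4 arrays. On all 4 arrays 16 genes were below 0 and 9 above 0. Genes with 1 sign on all arrays made up 35.2% of the set and 36.2% of all genes measured.

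The low median of the set after loess was seen on arrays 1 and 3. The median over the 71 genes was -0.20, 0.048, -0.18 and 0.0096 on arrays 1 to 4, and 51, 31, 50 and 33 genes were below 0. Arrays 1 and 3 were thus low and arrays 2 and 4 near 0 after loess, and in each of the 5 complexes the medians of arrays 1 and 3 were below those of arrays 2 and 4. The median signals of the single bulls did not show this pattern. The median log2 signal of the set was 13.56, 13.62, 13.43 and 13.58 in LIM bulls, against 13.65, 13.63, 13.37 and 13.62 in HF bulls. The bulls of both breeds on array 3 thus had the lowest values. There the LIM median lay above the HF median, although the median ratio was -0.18. On array 2 the LIM median lay just below the HF median, although the median ratio was 0.048. A median of ratios need not equal the difference of the medians.

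Several genes outside the set were also lower on arrays 1 and 3 than on arrays 2 and 4. PPARGC1A and the slow fibre, endothelial and adipocyte markers are shown for this order. The share of this order among all genes measured was not counted. It was also seen in CYC1 and in the medians of 3 lists described below. These were the assembly factors outside the symbol rule, coenzyme Q synthesis and the biogenesis regulators, which include PPARGC1A. The medians of the carriers and of the skeletal muscle, fibroblast, macrophage and erythrocyte markers did not have this order. Those of the fast fibre markers had the reverse order (0.71, 0.33, 0.72 and 0.42 on arrays 1 to 4). PPARGC1A, the coactivator that drives mitochondrial biogenesis, had ratios of -1.40, 0.0076, -1.27 and 0.064 and did not pass (mean -0.65 ± 0.31, adjusted p = 0.246). Its log2 signals were 9.83, 10.01, 8.77 and 9.52 in LIM bulls, against 11.24, 10.001, 10.05 and 9.46 in HF bulls, so that array 1 paired a high HF bull and array 3 a low LIM bull. The 7 measured slow fibre markers had medians of -1.89, -0.48, -0.93 and -0.011 on arrays 1 to 4. Of these markers 1, MYL3, passed as lower, where 3.15% of all genes measured did. The summed signal of the 7 markers ranged over 187244 to 299646 in LIM bulls, against 331589 to 764527 in HF bulls. All 7 were well above background in both channels on every array. Not every marker followed this order, since MYL3 was lowest on array 2 (-0.91, -1.04, -0.62 and -0.39) and MYOZ2 highest on array 3 (-1.53, 0.18, 0.81 and 0.43). MYH7, the slow myosin heavy chain, had log2 signals of 15.82, 16.32, 16.19 and 16.42 in LIM bulls, against 17.98, 16.69, 17.43 and 16.87 in HF bulls, with the HF bulls of arrays 1 and 3 the highest. Of the 6 measured fast fibre markers, 2 (TNNC2 and PVALB) passed as higher, where 2.78% of all genes measured did. ATP2A1 and ACTN3 averaged 0.82 ± 0.19 and 0.48 ± 0.12 without passing, and MYH1 and MYH2 averaged -0.044 ± 0.11 and -0.51 ± 0.31. The summed signals of the 6 markers were 675585 to 738663 in LIM bulls, against 531811 to 591483 in HF bulls. The 3 measured endothelial markers had medians of -0.23, 0.25, -0.61 and 0.038 and 0 of them passed. The 3 measured adipocyte markers, of which 0 passed, had medians of -0.32, 1.29, -0.42 and 1.15 on arrays 1 to 4. Their summed signal ranged over 363 to 1481 in LIM bulls, against 361 to 581 in HF bulls, and 2 of the 3 were well above background in both channels on every array. With median centring the mean ratio of PPARGC1A was -0.11 and that of MYL3 -0.089, and the list medians were -0.20 for slow fibre, 1.31 for fast fibre, 0.16 for endothelial and 0.58 for adipocyte markers. The part of fibre type or other cells in the ratios of the 71 genes was not tested.

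**Figure D3:**
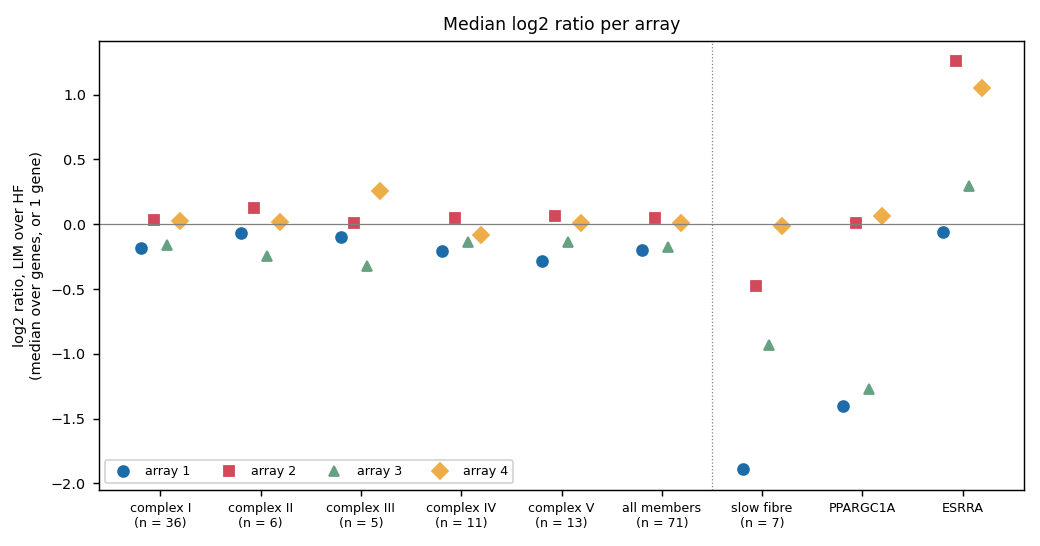
Log2 ratio of the LIM over the HF channel (vertical axis), as the median over the genes of each complex, over all 71 genes and over 7 slow fibre markers, and for PPARGC1A and ESRRA alone, with 1 symbol per array. After loess the median over all 71 genes is below 0 on arrays 1 and 3 and close to 0 on arrays 2 and 4 (above 0 in the mean over arrays with median centring), and the slow fibre and PPARGC1A points of arrays 1 and 3 lie lowest.

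Genes that work with the chain were also measured. Of 8 biogenesis regulators 0 passed, and ESRRA, a nuclear receptor that acts with PPARGC1A, had ratios of -0.062, 1.26, 0.29 and 1.05 (mean 0.63 ± 0.24, adjusted p = 0.172). Of 8 carriers and exchange partners 2 passed as higher and 0 as lower, where 2.78% of all genes measured were called higher and 3.15% lower. The median over the 8 was -0.17 after loess and 0.50 with median centring. The lowest was VDAC3, a channel of the outer membrane, at -0.69 ± 0.15 without passing (adjusted p = 0.0608). CKMT2, the mitochondrial creatine kinase of muscle, had log2 signals of 16.13, 16.47, 16.01 and 15.96 in LIM bulls, against 15.43, 15.20, 14.76 and 14.96 in HF bulls, with a ratio of 1.05 ± 0.12 (adjusted p = 0.0238). SLC25A4, the muscle isoform of the ADP/ATP carrier, had log2 signals of 14.77, 14.66, 14.58 and 14.66 in LIM bulls, against 13.97, 14.16, 14.30 and 14.02 in HF bulls, with a ratio of 0.55 ± 0.10 (adjusted p = 0.047). Neither gene had overlapping breeds, whereas the other ADP/ATP carriers SLC25A5 and SLC25A6 averaged -0.53 ± 0.12 and -0.34 ± 0.13 and did not pass. Of 22 assembly factors outside the symbol rule 2 fell and 0 rose, to be read against the same shares. They were FMC1, a factor for the ATP synthase (-0.64 ± 0.12, adjusted p = 0.0496), and COX19, a copper-handling factor for complex IV (-0.36 ± 0.066, adjusted p = 0.0478), and with median centring the ratios were -0.045 for FMC1 and 0.19 for COX19. Of 6 genes of coenzyme Q synthesis and handling 0 passed, with the widest values for COQ10B (-1.47 ± 0.29) and COQ10A (0.73 ± 0.16).

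The level that is called 0 decided the direction of the set, whereas the order of its genes depended on it less. The probes of the set were bright, with a median log2 intensity of 13.5, which exceeded that of 97.4% of the kept probes. With median centring the ratios of the set were higher than after loess by 0.67 in the median. Among all 711 genes measured with a log2 intensity of at least 12, the median ratio was -0.018 after loess and 0.65 with median centring. The 57 genes of the set that were as bright had medians of -0.11 and 0.58, slightly lower than these under both normalizations. With median centring 13 of the 71 genes passed as higher and 0 as lower, which is 18.3% of the set, where 25.5% of all genes measured passed as higher. Among the 13 were NDUFB5, NDUFAB1, NDUFS1, NDUFS3, NDUFS4, NDUFV3, NDUFA1 and NDUFC1 of complex I, SDHC, UQCRFS1, ATP5MC3 and ATP5MG. Across the 71 genes the mean ratios under both normalizations correlated with r = 0.87, a description over genes that share their arrays. The 10 lowest genes under each had 7 in common and the 10 highest had 9. Among bright genes, NDUFA5 stood below the median of the set by nearly the same distance under both, at -0.48 after loess and -0.49 with median centring when the median of the set was taken away on each array, and NDUFC1 stood above it by 0.63 and 0.62. Dimmer genes moved more, since NDUFAF7 stood at 0.0075 after loess and -0.85 with median centring, COX4I2 at -0.074 and -0.59, and SDHAF3 at -0.40 and -0.67. These 3 lay below NDUFA5 with median centring.

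**Figure D4:**
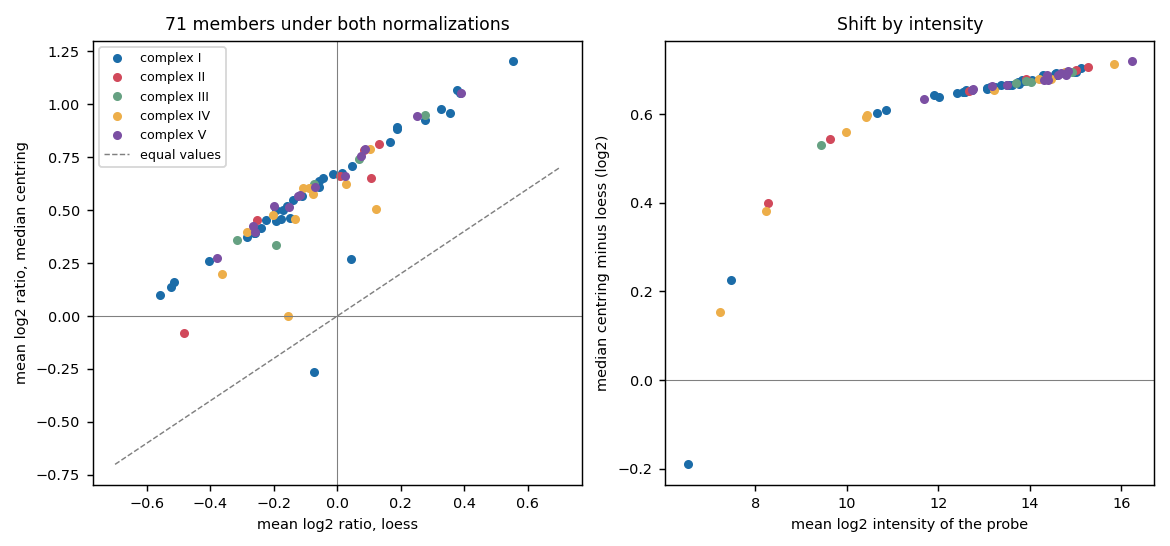
Left, mean log2 ratio of the LIM over the HF channel of the 71 genes after loess (horizontal axis) and with median centring (vertical axis), coloured by complex, with a dashed line of equal values. Right, the difference of both ratios against the mean log2 intensity of the probe. The points keep much of their order (r = 0.87) but lie above the dashed line for nearly all genes, so that 68 of 71 are above 0 with median centring against 26 after loess.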

How the data were processed

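RNA of the semitendinosus muscle was measured on 4 two-colour Agilent bovine arrays, each with 1 LIM bull (Cy5) and 1 HF bull (Cy3), hybridized on 1 slide. Per the file headers, Feature Extraction 10.7.3.1 gave the deposited median signal intensity and background per spot and its log10 ratio of red over green. The series value table that the authors deposited held the same log10 ratios (largest difference 0, median 0 on each array), with an exact 0 on 5507 to 6743 spots per array, and was used as an alternative.

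With R 4.3.3 and limma 3.58.1, intensities were corrected by normexp (offset 50), log2 ratios were normalized by loess (span 0.3, control spots at weight 0), and the 5 to 10 non-uniform spots of each array were dropped (saturated spots numbered 0). Values were averaged over the spots of each probe. A probe was kept if, in either channel, all its spots exceeded background clearly by the software's flag on 3 or more of the 4 arrays, which 15855 of 21475 probes did. The mean ratio was tested against 0 with limma's lmFit and eBayes, two-sided, with Benjamini-Hochberg adjustment over all kept probes. Every adjusted p is from this fit unless another is named, and it reflects the spread between 4 pairs of bulls. Signals of single bulls are channel log2 values after loess and Aquantile. Names came from RefSeq accessions through a RefSeq gene table, which named 8297 probes. Each of the 71 genes had 1 probe with 2 spots, whose log2 ratios differed by a median SD of 0.023. Non-overlap of breeds was counted on the channel values.

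The genes, groups and lists were chosen with earlier results of these data known. Genes were named by rule (adjusted p under 0.05, the 3 highest and lowest of each complex, all of complex II, isoform pairs, genes not above background on all arrays or with an array apart), and NDUFB6, NDUFB5, NDUFA6, NDUFS1, NDUFS3, NDUFS4, NDUFS7, NDUFV1, NDUFV2, NDUFV3, NDUFAB1, NDUFA10, NDUFAF4, ATP5F1B, ATP5PF, ATP5F1E and ATP5IF1 were added after their values were seen. The values of 1 gene of the set are not reported here, though it enters the counts and medians. The fit was tested on simulated data. Alternatives were the background correction and offset, the software's processed signals, the value table, median centring, centring on the kept probes, scaling between arrays, a stricter and no filter on probe brightness, dropping outlier spots, a robust prior with an intensity trend, weighted arrays, the t-test of the methods, channels without pairing, the mean over probes, leaving out each array and, chosen after seeing the data, a loess span of 0.7. Marker lists not described elsewhere had median ratios of 0.41 (3 adipocyte markers), 0.90 (6 fibroblast markers, of which COL3A1 passed as higher), -0.55 (4 macrophage markers), -0.12 (2 erythrocyte markers), 0.58 (6 fast fibre markers) and 0.076 (5 skeletal muscle markers). Probe sequences, genome positions and the arrays of a second beef breed that the study describes were not used here.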

Additional observations from a re-analysis of the deposited data

Results flagged for a closer look

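In 4 of the 71 genes a single array stood apart from the other 3, where the gap to the nearest array divided by the whole range exceeded Dixon's critical value for 4 samples. Counting the 6 set medians, 77 sets of 4 values were checked, of which chance alone flags about 1 in 20, or 3.85. ATP5PO had a ratio of gap to range of 0.90, with -0.48 on array 3 and -0.35 to -0.33 on the others. NDUFB4 had 0.885, with -0.53 on array 2 and -0.17 to -0.12 on the others. UQCRH had 0.853, with -0.55 on array 3 and -0.26 to -0.21 on the others. COX4I2 had 0.845, with -0.48 on array 1 and -0.081 to -0.0087 on the others. Leaving out the array that stood apart, the means of these genes stayed below 0, at -0.34 for ATP5PO, -0.15 for NDUFB4, -0.24 for UQCRH and -0.046 for COX4I2.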

How the results depend on the processing

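After loess 4 of the 71 genes passed as lower and 0 as higher. The lower count stayed at 4 with no background correction, centring on the kept probes, the strict filter, outlier spots left out, array weights and the mean over probes, and was 3 with offset 16, scale normalization, no filter, an intensity trend with a robust prior, and unpaired channels. With 1 probe per gene of the set, the mean over probes could not change this count. Leaving out outlier spots gave as many calls over all kept probes (868) as the main fit, so it was hardly a separate check. The lower count was 5 with a loess span of 0.7, which was chosen after seeing the data. It was 1 (NDUFA5) with the processed signals and with the value table, 0 with median centring and with the methods' t-test after Benjamini-Hochberg adjustment, and 0 to 0 with each array left out. At its own thresholds the methods' t-test gave 3 lower and 2 higher (NDUFA1 and NDUFC1). The higher count was 13 with median centring, 1 (NDUFA1) with array weights and 1 (NDUFC1) without the pairing of the channels by array. The array pairs the bulls by construction, and this unpaired fit without the replicate block lost NDUFA5. Leaving out an array gives the test fewer samples, and for the other changes in these counts the cause was not tested. Over 19 alternatives the adjusted p of NDUFA5 ranged from 0.0185 to 0.711 (past the threshold in 12), of NDUFA12 from 0.0202 to 0.632 (11), of NDUFB10 from 0.0146 to 0.595 (9) and of ATP5PO from 0.0198 to 0.281 (9). These 19 were not all distinct. The processed signals and the value table gave nearly the same ratios, and leaving out outlier spots repeated the counts of the main fit.

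Median centring moved the median of the 71 genes to 0.56 and those of complexes I to V to 0.51, 0.66, 0.62, 0.51 and 0.57. It also turned the ratios of NDUFA5 (0.10), NDUFA12 (0.14), NDUFB10 (0.16), NDUFB4 (0.42), SDHB (0.45), UQCRH (0.36), UQCRQ (0.34), UQCR10 (0.62), COX7A2 (0.20), COX6A2 (0.39), COX7A1 (0.48), COX8A (0.46), NDUFA4 (0.61), COX4I1 (0.60), COX6B2 (0.58), ATP5PO (0.28), ATP5MC2 (0.42), ATP5F1D (0.40) and ATP5MC1 (0.61). Which level is 0 for bright probes follows from the construction of both methods, since loess sets it at each intensity. Ratios near 0 also turned. SDHD was -0.00029 with no background correction, -0.0019 with offset 16, -0.011 with centring on the kept probes and -0.028 with a span of 0.7. That span also gave -0.021 for SDHA, -0.0089 for UQCRC1 and -0.012 for ATP5F1A. With an array left out, the ratio of SDHD ranged from -0.12 to 0.13, of SDHA from -0.047 to 0.15, of SDHAF1 from -0.038 to 0.22, of UQCRC1 from -0.047 to 0.18, of UQCR10 from -0.18 to 0.061, of COX7A2L from -0.12 to 0.27 and of ATP5MC1 from -0.17 to 0.0063. Leaving out an array moved the median of the 71 genes between -0.12 and -0.061, of complex I between -0.15 and -0.058, of II between -0.081 and 0.13, of III between -0.18 and 0.061, of IV between -0.18 and -0.061 and of V between -0.10 and -0.062. With a span of 0.7 the median of complex II was -0.024. With 4 arrays and no dye swap, a dye effect of a probe cannot be told apart from breed.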
